A study of Mus musculus with 18 samples.

Results

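Myl2, Myl3, Myl9, Mybpc3 and Mylk3 encode 3 light chains of myosin, cardiac myosin binding protein C and the cardiac kinase of the regulatory light chain. They were taken by symbol from a table of transcript levels in mouse hearts, where they are 5 of 24341 genes. Levels are in FPKM, which scales a gene's fragments for transcript length and for library size. All 5 reached at least 1 FPKM in at least 3 libraries and were among the 12587 genes tested. Myl2 and Myl3 are light chains of the ventricle. Myl9 is a light chain of smooth muscle and non-muscle cells and Mylk3 is a kinase, so neither is a ventricular light chain or a binding protein.

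The hearts came from C57BL/6 mice aged 12 weeks, 3 hearts in each of 6 groups. Mice ate propylthiouracil (PTU), which blocks the making of thyroid hormone, for 4 weeks from the age of 8 weeks and then received triiodothyronine (T3), the active hormone, as 3 daily injections; or they ate PTU alone; or they ate normal chow (NC). On each of the 3 treatments 1 group carried a cardiac-specific knockout of Med13 (cKO), a subunit of the Mediator complex, and 1 was wild-type (WT). The groups are therefore cKO PTU+T3, WT PTU+T3, cKO PTU, WT PTU, cKO NC and WT NC. The labels name neither the promoter nor the Cre line behind the knockout. Whether every library is 1 animal is not stated there, and p-values then reflect how far these libraries differ, which may include technical variation.

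Each library had between 11677 and 12091 genes at 1 FPKM or more, and its FPKM summed to between 551109 and 766329. The absolute depth is unknown. Steps between low values put the deepest library at 1.54 times the shallowest. Med13 lay between 4.93 and 6.96 FPKM in single libraries. Its mean was 6.25, 5.34 and 5.90 FPKM in cKO hearts on PTU+T3, PTU and NC, against 5.73, 6.36 and 5.52 FPKM in WT hearts, so the gene-level value does not check the genotype label. Cardiomyocyte markers (Tnnt2, Tnni3, Actc1, Ryr2, Myh6 and Irx4) summed to between 29849 and 44985 FPKM in PTU+T3, 17687.5 and 25331 FPKM in PTU and 23597 and 34746 FPKM in NC hearts. With T3 against PTU, 4 of these 6 rose and 1 fell in cKO, and 3 rose and 2 fell in WT (limma, adjusted p under 0.05). Of all tested genes, 46.7% were called there in cKO and 44.1% in WT. Their sum is therefore no measure of cardiomyocytes alone. The 5 skeletal muscle markers summed to between 6.93 and 22.5 FPKM in PTU+T3, 1.51 and 4.62 FPKM in PTU and 3.36 and 8.85 FPKM in NC hearts. Of these 5, Myh4 stood at the table's floor of 0.01 FPKM in every heart, while with T3 against PTU Tnni2 rose in both genotypes and Tnnt3 in WT. The part of skeletal muscle in the results was not tested. Atrial markers (Myl4, Myl7, Sln, Nppa, Bmp10 and Mybphl) summed to between 535 and 10239 FPKM and differed between hearts of 1 group, from 883 to 8037 FPKM among the WT NC hearts. Nppa weighed most in these sums, with a median of 2662 FPKM, beside 71.2 FPKM for Myl4 and 79.8 FPKM for Myl7. The heart of a group named highest in atrial markers was therefore chosen mostly by Nppa. These are whole-heart libraries, in which fewer cells of a type and less RNA per cell cannot be told apart.

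Every myosin head carries an essential and a regulatory light chain on its lever arm. In the ventricle Myl3 encodes the essential chain and Myl2 the regulatory one, and atrial myocytes use Myl4 and Myl7 in their place. The kinase encoded by Mylk3, activated by calcium and calmodulin, phosphorylates the regulatory chain and so raises the calcium sensitivity of force, and myosin phosphatase removes the phosphate. Cardiac myosin binding protein C, the product of Mybpc3, lies along the thick filament and holds cross-bridges back until it is phosphorylated. Thyroid hormone is best known in the rodent ventricle for setting which myosin heavy chain is made, the fast alpha chain Myh6 or the slow beta chain Myh7.

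On mm10 (GRCm38), the build named in the submitters' processing notes, Myl2 lies on the plus strand of chromosome 5 from 122100951 to 122113472 and Myl3 on the plus strand of chromosome 9 from 110741861 to 110769798. Myl9 and Mybpc3 both lie on the plus strand of chromosome 2, from 156775420 to 156781658 and from 91118144 to 91136516. Mylk3 lies on the minus strand of chromosome 8 from 85324303 to 85386345, and the antisense gene AA672651 within it shares no exonic base with it. The promoter windows of Mylk3, Mybpc3 and Myl3 are shown because these genes passed a test in at least 1 comparison between treatments and their RefSeq start sites lie at the start of the locus in the deposited table. Each window runs 5′ to 3′ from 250 bases before to 50 bases after the start site in RefSeq's GRCm38.p6, and capitals mark matches to the motifs searched. Mylk3 is at chr8:85380992-85381291 (minus strand), Mybpc3 at chr2:91117894-91118193 and Myl3 at chr9:110763428-110763727 (plus strand).
Mylk3: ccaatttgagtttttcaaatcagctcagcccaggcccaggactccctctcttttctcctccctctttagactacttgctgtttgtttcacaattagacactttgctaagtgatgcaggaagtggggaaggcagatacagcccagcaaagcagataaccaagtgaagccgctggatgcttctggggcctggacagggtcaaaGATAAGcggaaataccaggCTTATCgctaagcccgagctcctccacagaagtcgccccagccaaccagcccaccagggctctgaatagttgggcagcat
Mybpc3: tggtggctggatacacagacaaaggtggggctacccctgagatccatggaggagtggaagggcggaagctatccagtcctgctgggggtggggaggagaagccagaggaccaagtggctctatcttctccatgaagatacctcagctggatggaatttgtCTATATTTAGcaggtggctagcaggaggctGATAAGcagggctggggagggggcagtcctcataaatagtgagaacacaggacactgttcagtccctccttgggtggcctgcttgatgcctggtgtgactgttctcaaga
Myl3: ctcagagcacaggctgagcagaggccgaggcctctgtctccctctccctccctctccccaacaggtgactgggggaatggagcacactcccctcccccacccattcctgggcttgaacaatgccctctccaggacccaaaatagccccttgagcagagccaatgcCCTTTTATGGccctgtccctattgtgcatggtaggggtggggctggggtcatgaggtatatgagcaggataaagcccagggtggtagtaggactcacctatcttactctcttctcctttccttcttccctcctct
Both strands were searched for a CArG box (bound by serum response factor), a MEF2 motif, GATAAG (bound by GATA factors) and AGGTCA (a half-site of the thyroid hormone receptor). No motif match overlapped another. GATAAG was found in the Mylk3 window at -49 and, on the other strand, at -30, and in the Mybpc3 window at -60, counted to the match's first base from the start site. The Mybpc3 window also held a MEF2 motif at -90, and the Myl3 window a CArG box at -85. The Myl9 window, not printed, held a CArG box at -161. AGGTCA was in none of these 4 windows. Of 32851 windows of the same 300 bases in the RefSeq table, 7.44% held GATAAG, 0.557% the MEF2 motif, 1.63% a CArG box and 16.3% AGGTCA. The match is a description of the letters and says nothing of binding in these hearts.

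Adding T3 to PTU lowered Mylk3 in both genotypes. In WT hearts Myl2 and Mybpc3 fell as well, and in cKO hearts Myl3 rose. PTU against chow raised Mylk3 in cKO hearts and changed no other of the 5 genes past the threshold, and Mylk3 ended lower with T3 than on chow in both genotypes. In counts, limma at an adjusted p under 0.05 called 2 of the 5 genes for PTU+T3 against PTU in cKO, 1 higher and 1 lower, where it called 46.7% of all tested genes (24.9% higher and 21.8% lower). In WT hearts it called 3 of 5, all lower, where it called 44.1% of all tested genes (21.8% lower). For PTU against NC it called 1 of 5 in cKO, higher, where it called 16% of tested genes (6.44% higher). In WT it called 0 of 5, where it called 16.8% and where 3 of the 5 had an unadjusted p under 0.05. For PTU+T3 against NC it called 1 of 5 in cKO, lower, where it called 20.9% (9.15% lower), and 1 of 5 in WT, lower, where it called 14.7% (7% lower). With 5 genes, these counts are a description and not a result about the set. That holds too where 3 of 5 were lower beside 21.8% of all tested genes. As a description only, the median log2 fold change of the 5 genes for PTU+T3 against PTU was -0.16 in cKO and -0.68 in WT. Over all tested genes the median was near 0.

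**Figure D1:**
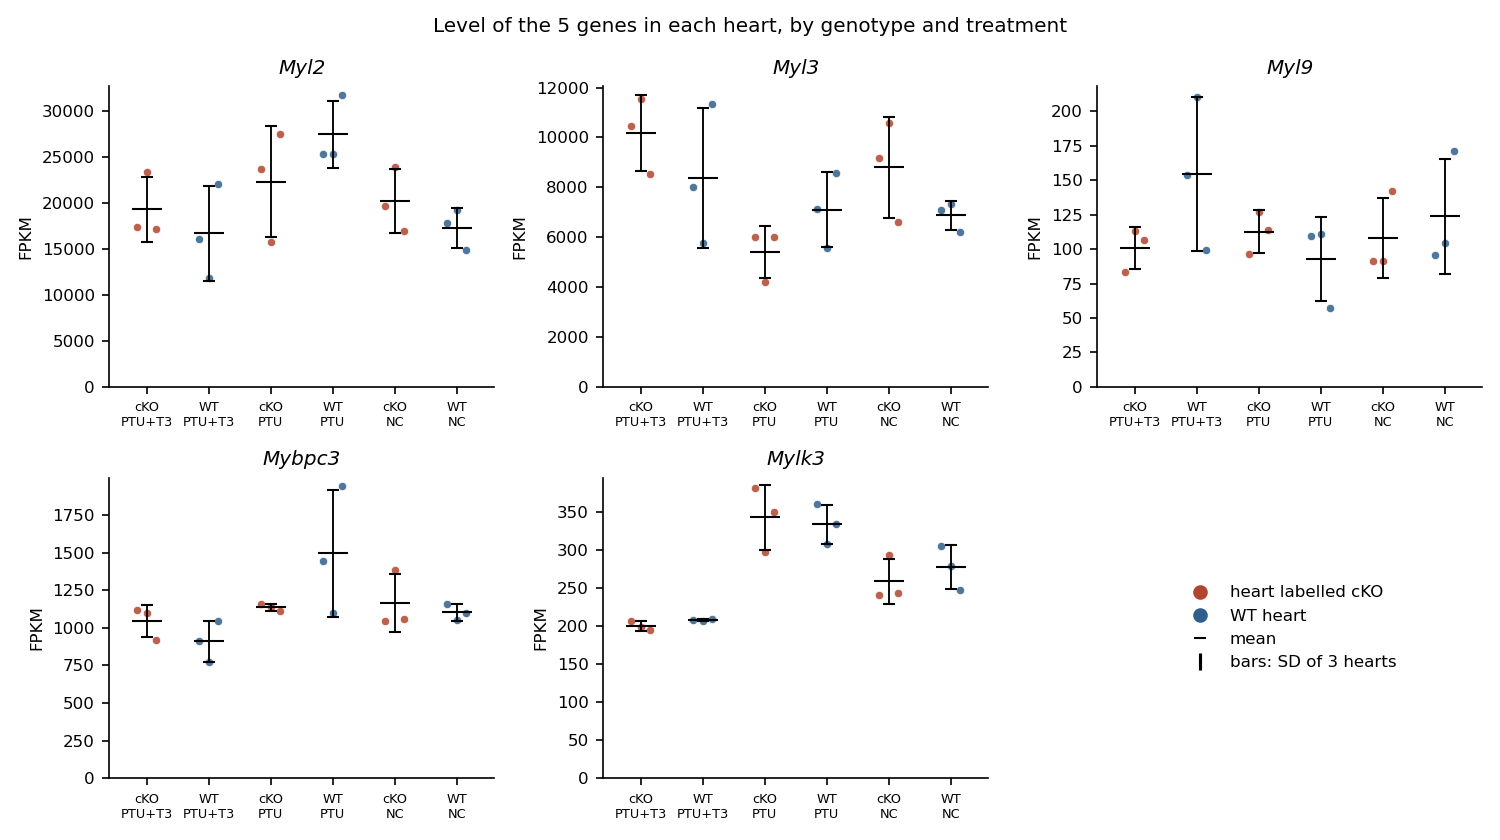
FPKM of each of the 5 genes (1 panel per gene, linear axis from 0) in each heart, grouped by genotype and treatment; points are hearts, long bars the mean and error bars the SD of 3 hearts. All 6 PTU+T3 hearts lie between 196 and 209.9 FPKM for Mylk3, under all 12 other hearts, while the groups of Myl9 overlap.

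Mylk3, the cardiac light chain kinase, had 208, 199 and 196 FPKM in cKO PTU+T3 hearts and 208.0, 207 and 209.9 FPKM in WT PTU+T3 hearts. It had 383, 298 and 350.5 FPKM in cKO PTU hearts and 361, 309 and 334 FPKM in WT PTU hearts. On chow it had 241, 294 and 244 FPKM in cKO hearts and 306, 279 and 248 FPKM in WT hearts. The 3 treatments were thus ordered alike in both genotypes, with PTU+T3 lowest and PTU highest, and neither genotype had a PTU or NC heart as low as any of its PTU+T3 hearts. With T3 against PTU the log2 level of Mylk3 fell by 0.77 in cKO (SE 0.109, adjusted p = 3.33e-05, limma) and by 0.68 in WT (SE 0.109, adjusted p = 0.000127, limma). These 2 calls were kept under all 26 alternatives in cKO and all 27 in WT. Of all tested genes, 55.4% in cKO and 50.7% in WT also had hearts that did not overlap between PTU+T3 and PTU. With both genotypes together, 33.9% of all tested genes separated PTU+T3 from PTU in this way, and 17.4% separated PTU+T3 from NC.

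Against chow the changes of Mylk3 were smaller. With PTU+T3 against NC it fell by 0.36 in cKO (SE 0.109, adjusted p = 0.0253, limma) and by 0.41 in WT (SE 0.109, adjusted p = 0.0199, limma). With PTU against NC it rose by 0.40 in cKO (SE 0.109, adjusted p = 0.0202, limma) and stood 0.27 higher in WT (SE 0.109, adjusted p = 0.102, limma), in both without overlap between the hearts. Hearts did not overlap between PTU+T3 and NC for 41.7% of all tested genes in cKO and 31.4% in WT. Between PTU and NC they did not overlap for 32.4% in cKO and 35.6% in WT. With both genotypes together, Mylk3 did overlap between PTU and NC, with a cKO PTU heart at 298 and a WT NC heart at 306 FPKM. There 13.5% of all tested genes did not overlap. Single hearts decided these calls. The call for PTU against NC in cKO ended without cKO PTU replicate 1 or 3 or cKO NC replicate 1 or 3 (adjusted p up to 0.0951), and in a fit of only the groups compared (adjusted p = 0.111). The call for PTU+T3 against NC in WT ended without WT PTU+T3 replicate 2 or 3 or WT NC replicate 1 or 2 (up to 0.0959) and in a fit of only the groups compared (adjusted p = 0.0677), and it had q = 0.0926 in the authors' deposited table. The call for PTU+T3 against NC in cKO ended without any 1 of the 3 cKO PTU+T3 hearts or without cKO NC replicate 2 (up to 0.120). All 3 calls against chow also ended without the heart highest in smooth muscle markers in each group (adjusted p up to 0.114), with log2 changes close to or above those over all hearts: 0.45 for PTU against NC in cKO, and -0.40 for PTU+T3 against NC in cKO and in WT. The call for PTU+T3 against NC in cKO also ended without the heart highest in atrial markers (-0.40, adjusted p = 0.0814). Beside the PTU against NC change in cKO, 3 of 4 erythroid markers fell, with sums of 343 to 858 FPKM in cKO PTU and 1106 to 1897 FPKM in cKO NC hearts, and of 5 pericyte markers Kcnj8 and Rgs5 fell and Cspg4 rose. Of all tested genes 16% were called in that comparison, and the part of these markers in the result was not tested. Averaged over genotypes, a comparison added after seeing the data, Mylk3 was called in all 3: 0.34 for PTU against NC (adjusted p = 0.00364), -0.39 for PTU+T3 against NC (adjusted p = 0.00113) and -0.72 for PTU+T3 against PTU (adjusted p = 8.06e-07, limma). In those averaged comparisons limma called 31.3%, 34.8% and 59.6% of all tested genes.

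**Figure D2:**
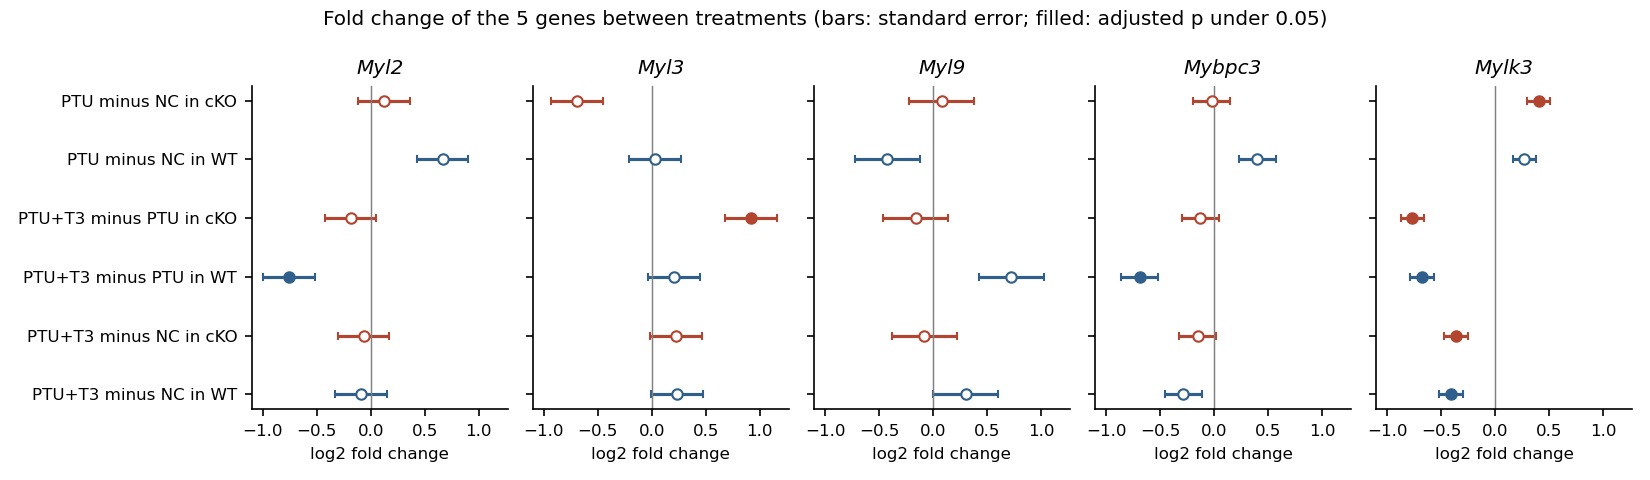
Log2 fold change of each gene (1 panel per gene) in the 6 comparisons between treatments, with the cKO row above the WT row of each; bars are the standard error from the limma fit and filled points have an adjusted p under 0.05. Mylk3 is filled in 5 of the 6 rows, and Myl9 in none.

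Myl2, the regulatory light chain of the ventricle, was the most abundant transcript in 13 of the 18 libraries and held 1.95% to 4.58% of all FPKM. It had 16102, 11801 and 22069.8 FPKM in WT PTU+T3 hearts, against 25299, 25279.9 and 31661 FPKM in WT PTU hearts and 17821, 19152 and 14886 FPKM in WT NC hearts. All 3 WT PTU hearts stood above every other WT heart. In WT, 50.7% of all tested genes had no overlap between PTU+T3 and PTU, and 35.6% none between PTU and NC. With T3 against PTU in WT, the log2 level of Myl2 fell by 0.76 (SE 0.238, adjusted p = 0.0171, limma). The call ended without WT PTU+T3 replicate 2 (adjusted p = 0.0935) or WT PTU replicate 3 (adjusted p = 0.0655), and without the heart highest in smooth muscle markers in each group (adjusted p = 0.108). In the authors' deposited table it had q = 0.0991. PTU against NC in WT gave 0.66 (SE 0.238, adjusted p = 0.0671, limma). That change was called with equal library totals (adjusted p = 0.0122), with only the groups compared (adjusted p = 0.0459) and without WT PTU+T3 replicate 2 or 3 or cKO PTU replicate 2, and it was 0 under quantile normalization.

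In cKO hearts Myl2 had 17306, 23364 and 17190.3 FPKM on PTU+T3, against 23672, 15735 and 27468 FPKM on PTU and 19689.9, 23829 and 16964 FPKM on NC. The 3 cKO treatments overlapped, and cKO PTU replicate 2 was the lowest of all 9 cKO hearts. The log2 fold change was -0.19 for PTU+T3 against PTU (adjusted p = 0.548) and 0.12 for PTU against NC (adjusted p = 0.775, limma). The same heart, cKO PTU replicate 2, had the highest summed atrial markers of all 18 hearts (10239 FPKM). That sum was mostly Nppa, which reached 10081 FPKM in cKO PTU. This heart also had the lowest summed FPKM of all genes among the 18 libraries (551109). Its smooth muscle sum was the highest of the cKO PTU hearts (258 FPKM). The ratios of Myl7 to Myl2 (0.0031) and of Myl4 to Myl3 (0.0156) were lower in it than in cKO PTU replicate 3 (0.0291 and 0.131). Without the heart highest in atrial markers in each group, the change of Myl2 in cKO was -0.56 for PTU+T3 against PTU (adjusted p = 0.048, limma). The change of Myl2 was also called under quantile normalization (-0.43, adjusted p = 0.00882) and with equal library totals (-0.46, adjusted p = 0.023, limma). The part of atrial tissue, of smooth muscle or of the library total in the difference was not tested.

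Myl3, the essential light chain of the ventricle, ranked between 4 and 8 by level in every library. It had 10445, 11531 and 8534 FPKM in cKO PTU+T3 hearts, against 6014, 4222 and 5992 FPKM in cKO PTU hearts and 9188, 10583.5 and 6608 FPKM in cKO NC hearts. All 3 cKO PTU hearts stood below every other cKO heart, the opposite position to that of Myl2 in the WT PTU hearts. In cKO, 55.4% of all tested genes had no overlap between PTU+T3 and PTU, and 32.4% none between PTU and NC. With T3 against PTU in cKO, Myl3 rose by 0.92 (SE 0.241, adjusted p = 0.00537, limma). That call was kept when any 1 heart was left out and ended under quantile normalization (0.11, adjusted p = 0.308), which fixes the values at the top ranks that Myl2 and Myl3 hold. PTU against NC in cKO gave -0.69 (SE 0.241, adjusted p = 0.0608, limma). That change was called with equal library totals (-0.54, adjusted p = 0.0345) and without cKO NC replicate 3 (-0.89, adjusted p = 0.0293) or WT PTU+T3 replicate 2 or 3, and it was -0.15 under quantile normalization.

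In WT hearts Myl3 had 8026, 5764 and 11341 FPKM on PTU+T3, against 7128, 5578 and 8579 FPKM on PTU and 7099.8, 7315 and 6194 FPKM on NC. The 3 WT treatments overlapped. The log2 fold change was 0.21 for PTU+T3 against PTU (adjusted p = 0.513), with a sign that turned to -0.20 under quantile normalization and to -0.02 without the hearts highest in atrial markers, and 0.03 for PTU against NC (adjusted p = 0.953, limma).

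Hearts that were high in Myl2 were high in Myl3. The same heart was highest in both genes in 5 of the 6 groups and lowest in both in 6 of 6. In each group the heart highest in Myl2 also had the largest summed FPKM of all genes, and the heart lowest in Myl2 the smallest. Among WT PTU+T3 hearts, for example, these sums were 743572 and 604539 FPKM. How many of all tested genes took this order was not computed, and the part of the library total in it was not tested. The ratio of Myl2 to Myl3 was 1.66, 2.03 and 2.01 in cKO PTU+T3 hearts and 2.01, 2.05 and 1.95 in WT PTU+T3 hearts. It was 3.94, 3.73 and 4.58 in cKO PTU hearts and 3.55, 4.53 and 3.69 in WT PTU hearts. On chow it was 2.14, 2.25 and 2.57 in cKO hearts and 2.51, 2.62 and 2.40 in WT hearts. In each genotype the 3 treatments did not overlap, with PTU highest, NC between and PTU+T3 lowest, and within each treatment the ranges of the genotypes overlapped. Group means were 1.90 ± 0.21 in cKO PTU+T3, 2.0 ± 0.051 in WT PTU+T3, 4.08 ± 0.447 in cKO PTU, 3.92 ± 0.531 in WT PTU, 2.32 ± 0.221 in cKO NC and 2.51 ± 0.107 in WT NC (SD, n = 3 each). A ratio within a heart does not change with the scaling of the library, and it shows unequal change, not which of the 2 transcripts moved. It was examined after the levels had been seen and is given as a description, with no test.

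**Figure D3:**
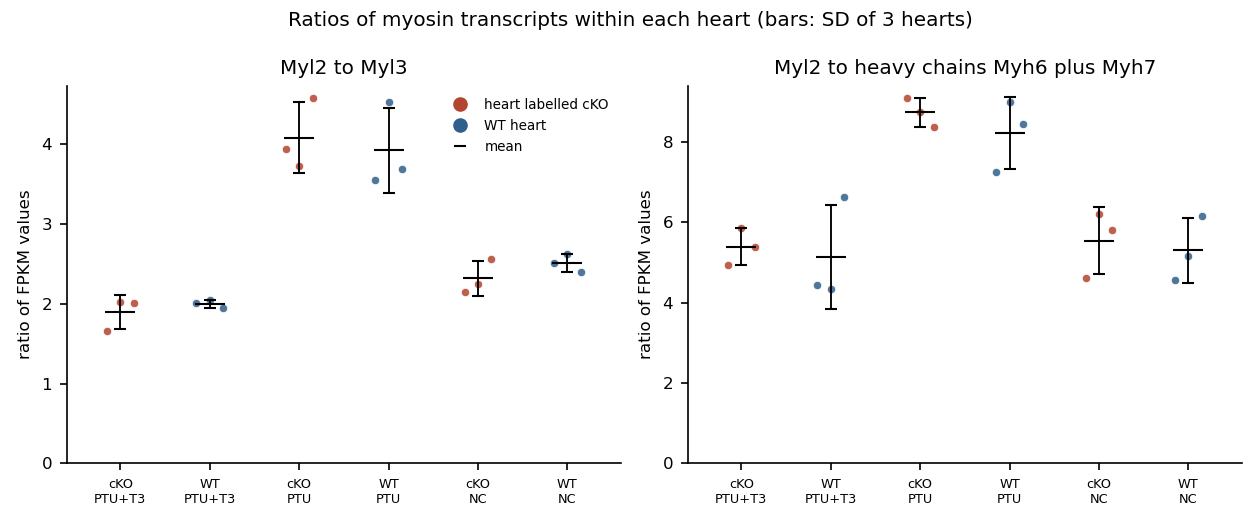
Ratio of Myl2 to Myl3 (left) and of Myl2 to the sum of Myh6 and Myh7 (right), from the FPKM of each heart, on linear axes from 0; points are hearts, long bars the mean and error bars the SD of 3 hearts. On the left all 6 PTU hearts lie at 3.55 or above and all other hearts at 2.62 or below; on the right the PTU hearts are again higher.

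The ratio of Myl2 to the heavy chains, whose summed FPKM stands for the thick filament's main component, was also high on PTU. It does not show which transcript moved. In cKO, Myl2 itself changed by 0.12 for PTU against NC (adjusted p = 0.775, limma). There Myh6 averaged 181 FPKM on PTU and 3514 FPKM on NC, and Myh7 2379 and 166 FPKM. The ratio of Myl2 to Myh6 plus Myh7 was 5.40 ± 0.470 in cKO PTU+T3 and 5.15 ± 1.29 in WT PTU+T3 hearts, 8.74 ± 0.355 in cKO PTU and 8.23 ± 0.899 in WT PTU hearts, and 5.54 ± 0.833 in cKO NC and 5.30 ± 0.806 in WT NC hearts (SD, n = 3 each). The lowest PTU heart, at 7.25, stood above the highest heart on any other treatment, at 6.64. For Myl3 the same ratio ran from 2.11 in WT PTU to 2.85 in cKO PTU+T3. Treatments overlapped in both genotypes, except that all cKO PTU+T3 hearts (2.68 to 2.97) lay above all cKO PTU hearts (1.83 to 2.35). The atrial counterparts were minor beside the ventricular chains. The ratio of Myl7 to Myl2 was at most 0.0425 and that of Myl4 to Myl3 at most 0.131 in any heart, and neither Myl4 nor Myl7 was called in any of these comparisons.

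Mybpc3, cardiac myosin binding protein C, had 912, 775 and 1045 FPKM in WT PTU+T3 hearts, against 1447, 1101 and 1941 FPKM in WT PTU hearts and 1159.8, 1049.8 and 1102 FPKM in WT NC hearts. Every WT PTU+T3 heart stood below every other WT heart. In WT, 50.7% of all tested genes had no overlap between PTU+T3 and PTU, and 31.4% none between PTU+T3 and NC. With T3 against PTU in WT, Mybpc3 fell by 0.69 (SE 0.172, adjusted p = 0.00434, limma), and the call was kept under all 27 alternatives. PTU against NC in WT gave 0.40 (SE 0.172, adjusted p = 0.124), with WT PTU replicate 2 inside the range of the NC hearts. Without that heart it was 0.60 (adjusted p = 0.0226, limma). PTU+T3 against NC in WT gave -0.29 (adjusted p = 0.288).

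In cKO hearts Mybpc3 had 1116, 1098 and 919.7 FPKM on PTU+T3, against 1156, 1141 and 1111 FPKM on PTU and 1049, 1387 and 1059 FPKM on NC. The cKO PTU hearts overlapped those of both other treatments. The log2 fold change was -0.13 for PTU+T3 against PTU (adjusted p = 0.576) and -0.02 for PTU against NC (adjusted p = 0.944, limma). Averaged over genotypes, PTU+T3 against PTU gave -0.47 for Myl2 (adjusted p = 0.0239), 0.56 for Myl3 (adjusted p = 0.00965) and -0.41 for Mybpc3 (adjusted p = 0.00899, limma). The direction of the averaged Myl3 change turned to -0.04 under quantile normalization, and leaving out the heart of each group highest in atrial markers ended that call (adjusted p = 0.125). The averaged Myl2 call ended without any 1 of 6 single hearts (WT PTU+T3 replicate 2, WT PTU replicate 3 and replicates 1 and 3 of both cKO groups; adjusted p up to 0.0686).

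Myl9, the regulatory light chain of smooth muscle and non-muscle myosin, was the least abundant of the 5 and on average had the widest spread between hearts of a group. It had 83.2, 113 and 106 FPKM in cKO PTU+T3 hearts and 154, 211 and 99.3 FPKM in WT PTU+T3 hearts. It had 96.2, 127 and 114 FPKM in cKO PTU hearts and 109.8, 111 and 57.6 FPKM in WT PTU hearts. On chow it had 91.2, 91.2 and 142 FPKM in cKO hearts and 95.7, 104 and 172 FPKM in WT hearts. All neighbouring groups overlapped when ordered by mean, and limma called Myl9 in no comparison. PTU+T3 against PTU in WT gave 0.73 (SE 0.303, adjusted p = 0.0637), which became 1.01 without WT PTU+T3 replicate 3 (adjusted p = 0.0185) and 1.16 without the hearts highest in atrial markers (adjusted p = 0.00982, limma).

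The authors' own test differed for Myl9. In the authors' deposited table it stood at 154.8 FPKM in WT PTU+T3 and 92.9 FPKM in WT PTU hearts (q = 0.00034). The authors' deposited table also gave 94.0 FPKM in WT PTU and 125 FPKM in WT NC hearts (q = 0.0229), and 96.9 FPKM in cKO PTU+T3 and 150.3 FPKM in WT PTU+T3 hearts (q = 0.00736).

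Smooth muscle markers (Acta2, Myh11, Tagln, Cnn1, Lmod1 and Smtn) differed between treatments, mostly in Acta2. Their sum was 335 to 482 FPKM in cKO PTU+T3 and 460.2 to 709 FPKM in WT PTU+T3 hearts, 189.7 to 258 FPKM in cKO PTU and 138 to 214 FPKM in WT PTU hearts, and 227 to 307 FPKM in cKO NC and 259 to 334 FPKM in WT NC hearts. Acta2, smooth muscle actin, averaged 437 ± 111 FPKM in WT PTU+T3 and 56.7 ± 25.6 FPKM in WT PTU hearts (SD, n = 3 each; log2 fold change 2.98, adjusted p = 2.91e-06, limma). Myh11, the smooth muscle heavy chain, fell, at 9.69 ± 2.02 FPKM in WT PTU+T3 and 14.4 ± 1.45 FPKM in WT PTU hearts (log2 fold change -0.55, adjusted p = 0.0239, limma). The other 4 markers were not called for PTU+T3 against PTU in either genotype. The heart of a group that was highest in Myl9 was also the highest in the smooth muscle sum in 3 of 6 groups and the highest in the atrial sum in 4 of 6. The part of either cell type in the Myl9 values was not tested.

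**Figure D4:**
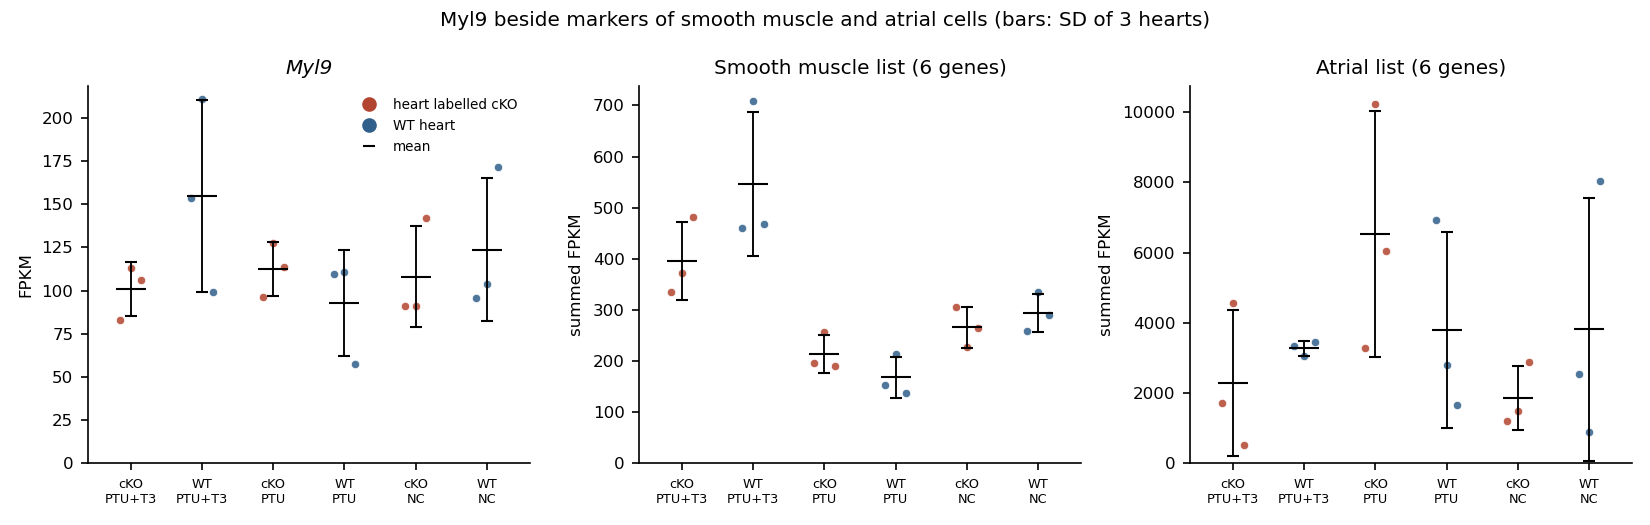
FPKM of Myl9 (left), summed FPKM of the 6 smooth muscle markers (middle) and summed FPKM of the 6 atrial markers (right) in each heart, on linear axes from 0; points are hearts, long bars the mean and error bars the SD of 3 hearts. The smooth muscle sum is 335 or more in the PTU+T3 hearts and 258 or less in the PTU hearts, while Myl9 overlaps between them.

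No difference between the genotypes passed the threshold. For cKO against WT, limma called 0 of the 5 genes and 0% of all tested genes on PTU+T3, PTU and NC and averaged over treatments. At an unadjusted p under 0.05 it would have taken 434, 491, 394 and 209 genes, and 0 of the 5 in each. The authors' q under 0.05 took 121, 117 and 80 genes on PTU+T3, PTU and NC, among the 5 only Myl9 on PTU+T3. On PTU, cKO against WT gave -0.33 for Myl2, -0.39 for Myl3, 0.33 for Myl9 and -0.36 for Mybpc3, each with an adjusted p of 0.911, and 0.03 for Mylk3 (adjusted p = 0.967, limma). On PTU+T3 it gave 0.24 for Myl2, 0.32 for Myl3, -0.56 for Myl9, 0.20 for Mybpc3 and -0.05 for Mylk3, each with an adjusted p of 0.979. On NC it gave 0.22 for Myl2, 0.33 for Myl3, -0.18 for Myl9, 0.07 for Mybpc3 and -0.10 for Mylk3, each with an adjusted p of 0.999 (limma). Hearts of the 2 genotypes overlapped for all 5 genes on every treatment, whereas 8.54%, 7.52% and 8.51% of all tested genes did not overlap on PTU+T3, PTU and NC.

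The calls in WT that were not made in cKO, and the reverse, were not shown to differ between genotypes. The interaction of T3 with genotype was 0.57 for Myl2, 0.71 for Myl3, -0.89 for Myl9, 0.56 for Mybpc3 and -0.09 for Mylk3, with SEs from 0.154 to 0.428 on the log2 scale. Only that of Mybpc3 had an unadjusted p under 0.05 (0.0349), and its adjusted p was 0.696 (limma). The interaction of PTU with genotype was -0.54 for Myl2, -0.72 for Myl3, 0.50 for Myl9, -0.43 for Mybpc3 and 0.13 for Mylk3, with the smallest unadjusted p at 0.0505 for Myl3. Limma called 0% of all tested genes for either interaction, where 821 genes for T3 and 805 for PTU had an unadjusted p under 0.05.

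The heavy chains were exchanged in these hearts. Myh6 averaged 3024 ± 445 FPKM in WT PTU+T3 and 239.5 ± 151 FPKM in WT PTU hearts (log2 fold change 3.85, adjusted p = 1.21e-06). Myh7 averaged 194 ± 29.0 FPKM in WT PTU+T3 and 3110 ± 522 FPKM in WT PTU hearts (SD, n = 3 each; log2 fold change -3.99, adjusted p = 1.5e-08, limma). The changes of Myl2 and Myl3, under 1 in size on the log2 scale, were small beside these. The 2 heavy chains are close copies in sequence and Myh7 overlaps an antisense transcript, so their counts could be shared in part. Of the 7 heavy chains listed, 2 rose and 4 fell with T3 against PTU in WT, where limma called 44.1% of all tested genes. Besides Myh6 and Myh7, the non-muscle chain Myh9 rose by 0.32 (adjusted p = 0.0474), a call that ended with equal library totals (adjusted p = 0.302). Myh7b fell by 2.44 (adjusted p = 2.8e-06), Myh14 by 0.94 (adjusted p = 7.53e-05) and Myh11 by 0.55 on the log2 scale. In cKO 1 of the 7 rose and 3 fell, where limma called 46.7% of all tested genes.

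Of 9 other light chains listed, 8 were tested, all but Myl10. With T3 against PTU, limma called 46.7% of all tested genes in cKO and 44.1% in WT. Of these 8 light chains, 2 rose and 0 fell in cKO, and 3 rose and 0 fell in WT. Among those not called, mean Myl4 was 162 FPKM in cKO PTU+T3 and 295 FPKM in cKO PTU hearts, with single hearts of these groups from 11.1 to 784.7 FPKM. Myl12a, a regulatory chain of non-muscle myosin, averaged 428 ± 68.5 FPKM in WT PTU+T3 and 161 ± 11.8 FPKM in WT PTU hearts (log2 fold change 1.40, adjusted p = 4.43e-06), and it rose by 1.35 in cKO (adjusted p = 4.8e-06). It is a close copy of Myl12b, with which it could share reads. Myl1, an essential chain of fast skeletal muscle, averaged 329.9 ± 65.9 FPKM in WT PTU+T3 and 88.6 ± 49.7 FPKM in WT PTU hearts (log2 fold change 1.997, adjusted p = 0.00352), and it rose by 1.95 in cKO (adjusted p = 0.00379). Myl6, the essential chain of smooth muscle and non-muscle myosin, rose by 0.69 in WT (adjusted p = 0.00479), a call that ended under quantile normalization (adjusted p = 0.0587). With PTU against NC the only call in either genotype was Myl12a, which fell by 0.79 in cKO (adjusted p = 0.00363) and by 1.18 in WT (adjusted p = 0.000144, limma). Of all tested genes, 16% were called in that comparison in cKO and 16.8% in WT.

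The listed kinases did not all move alike. Mylk4, a kinase of the same family, moved in the opposite direction to Mylk3, at 53.7 ± 22.9 FPKM in WT PTU+T3 and 11.8 ± 6.01 FPKM in WT PTU hearts (SD, n = 3 each; log2 fold change 2.08, adjusted p = 0.00046, limma). In cKO it rose by 2.27 with T3 against PTU (adjusted p = 0.000204). With PTU against NC, Mylk4 fell by 2.23 in cKO (adjusted p = 0.0015) and by 1.90 in WT (adjusted p = 0.00367, limma). Mylk, the smooth muscle kinase, lay between 5.74 and 6.79 FPKM in the group means and was not called. Of 7 kinases and calmodulin genes tested (8 listed), 2 rose and 1 fell with T3 against PTU in each genotype. Limma called 46.7% of all tested genes there in cKO and 44.1% in WT. In cKO, Rock1, another protein kinase, moved in the direction of Mylk3 and fell by 0.43 (adjusted p = 0.00127), while the rise of the calmodulin gene Calm3, 0.29 (adjusted p = 0.00872), ended with equal library totals (0.02, adjusted p = 0.870). In WT, Calm3 rose by 0.40 (adjusted p = 0.00104) and Rock1 fell by 0.45 (adjusted p = 0.00108, limma). With PTU against NC, Rock1 rose by 0.30 in cKO (adjusted p = 0.0372), and averaged over genotypes the kinase gene Dapk3 rose by 0.28 (adjusted p = 0.0108, limma).

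Of 6 myosin phosphatase genes, 1 rose and 2 fell with T3 against PTU in each genotype. Limma called 46.7% of all tested genes there in cKO and 44.1% in WT. Ppp1r14b, an inhibitor of the phosphatase, averaged 103 ± 15.2 FPKM in WT PTU+T3 and 52.5 ± 6.47 FPKM in WT PTU hearts (log2 fold change 0.95, adjusted p = 9.06e-06). The targeting subunits Ppp1r12a and Ppp1r12c fell by 0.43 (adjusted p = 0.00136) and 0.57 (adjusted p = 8.87e-05) in cKO, and by 0.25 (adjusted p = 0.0391) and 0.45 (adjusted p = 0.000775) in WT. The call of Ppp1r12a in WT ended with equal library totals (adjusted p = 0.0833). In cKO, Ppp1r14b rose by 0.93 (adjusted p = 8.96e-06, limma). With PTU against NC, 2 of the 6 were called in cKO, where Ppp1r12a rose by 0.44 (adjusted p = 0.00555) and Ppp1r12c by 0.29 (adjusted p = 0.0404, limma), and 0 in WT. Of all tested genes, 16% were called in cKO and 16.8% in WT.

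**Figure D5:**
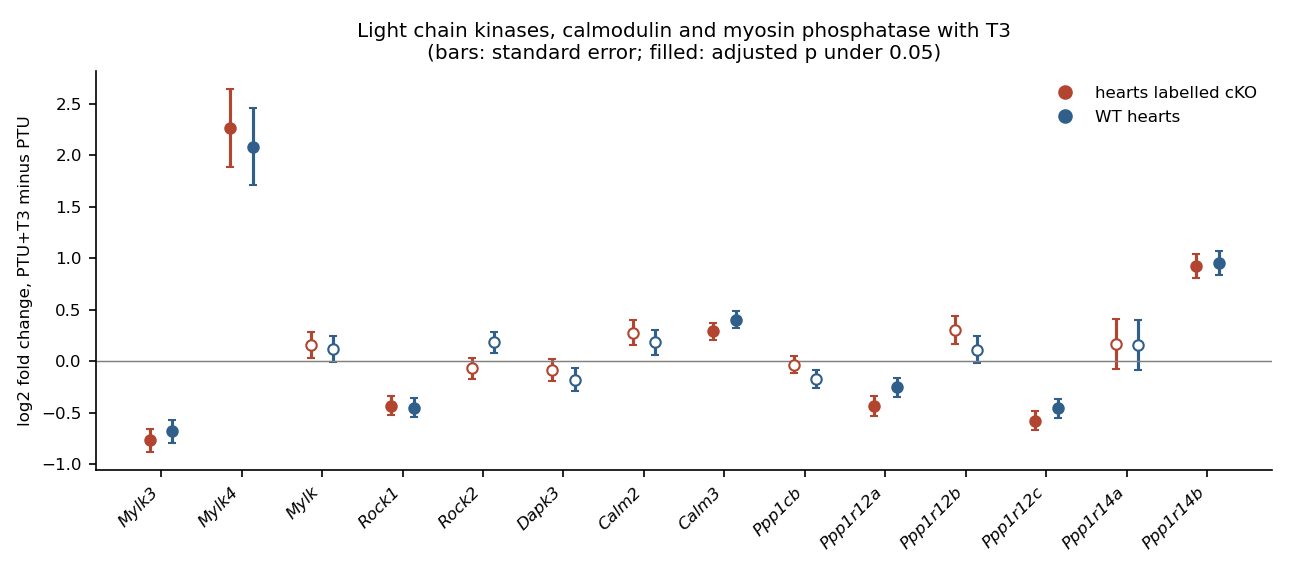
Log2 fold change of PTU+T3 against PTU for Mylk3, the other listed kinases, 2 calmodulin genes and the myosin phosphatase genes, with cKO to the left of WT for each gene; bars are the standard error from the limma fit and filled points have an adjusted p under 0.05. Mylk3 lies at -0.77 and -0.68 and Mylk4 at 2.27 and 2.08.

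Among other binding proteins, 2 of 4 were tested. Mybpc2, the fast skeletal form, fell by 1.10 with T3 against PTU in cKO (adjusted p = 0.0423, limma), a call that ended without the hearts highest in atrial markers (adjusted p = 0.203), and Mybphl was not called. Of 5 kinases known to phosphorylate cardiac myosin binding protein C, 0 were called in WT for either PTU against NC or T3 against PTU. Limma called 16.8% and 44.1% of all tested genes in these comparisons. In cKO, Prkacb, a catalytic subunit of protein kinase A, rose by 0.24 with PTU against NC (adjusted p = 0.0430) and fell by 0.31 with T3 against PTU (adjusted p = 0.00329, limma). Averaged over genotypes, 4 of the 5 fell with T3 against PTU: Prkacb by 0.24 (adjusted p = 0.00101), Prkd1 by 0.20 (adjusted p = 0.0408), Camk2d by 0.19 (adjusted p = 0.0229) and Gsk3b by 0.15 (adjusted p = 0.0197, limma). In that averaged comparison limma called 7503 of 12587 tested genes (59.6%), 3694 of them lower.

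The thin filament moved more than the 5 genes did. Of 8 genes listed, 1 rose and 3 fell with PTU against NC in WT, and 4 rose and 2 fell with T3 against PTU in WT. Limma called 16.8% and 44.1% of all tested genes in these comparisons. Actc1, cardiac actin, averaged 18485 ± 3796 FPKM in WT PTU+T3 and 4957 ± 346 FPKM in WT PTU hearts (log2 fold change 1.88, adjusted p = 5.98e-07). Acta1, skeletal actin, rose by 4.02 (adjusted p = 0.000168), Tpm1, a tropomyosin, rose by 0.68 (adjusted p = 0.00784) and Tnnt2, cardiac troponin T, fell by 0.74 (adjusted p = 0.00924, limma). Tpm1 lost its call under quantile normalization (adjusted p = 0.0563). In cKO 5 of the 8 rose and 0 fell with T3 against PTU, where 46.7% of all tested genes were called. Tpm1 rose by 0.60 there, and its change turned to -0.03 under quantile normalization.

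The genes whose levels followed each member most closely over the 18 hearts were found by Pearson's r of log2(FPKM + 1). For Mylk3 they were Mgea5 (r = 0.971), Bbs2 (r = 0.956) and Mfsd7c (r = 0.955). For Myl2 they were Cox6a2, a heart and muscle subunit of cytochrome c oxidase (r = 0.953), Rpa2 and Anapc16 (r = 0.943 each). For Myl3 they were Ak1, an adenylate kinase (r = 0.973), Mb, the myoglobin gene (r = 0.961), and Tmem82 (r = 0.954). For Mybpc3 they were Pcdhga1 (r = 0.899), Nop14 (r = 0.897) and Cdk5rap1 (r = 0.882), and for Myl9 Sulf1 (r = 0.866), Flrt2 (r = 0.850) and Fads1 (r = 0.832). These are the highest of all other tested genes for each member, the hearts share their treatments, and Spearman's rho was lower for the neighbours of Mybpc3 and Myl9 (0.633 to 0.773).

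Heart by heart, Mybpc3 and Mylk3 shared the highest heart in 5 and the lowest heart in 4 of the 6 groups. Mylk3 shared the lowest heart in 5 groups with Myl2 and with Myl3, and the highest in 2 with Myl2 and in 3 with Myl3. Mybpc3 shared the lowest heart in 3 groups with Myl2 and with Myl3, and the highest in 3 with Myl2 and in 4 with Myl3. Myl9 shared neither the highest nor the lowest heart with Mybpc3 or Mylk3 in any group. The heart highest in smooth muscle markers was the lowest of its group in Mybpc3 and in Mylk3 in 5 of 6 groups each, and the lowest in Myl2 and Myl3 in 4 of 6 each. That heart also had the lowest summed FPKM of all genes in its group on PTU and PTU+T3 in both genotypes, but not on NC. How many of all tested genes shared such hearts was not computed. The part of the library total or of smooth muscle in these counts was not tested. The mean coefficient of variation within groups was 7.64% for Mylk3, 12.8% for Mybpc3, 19.9% for Myl2, 20.03% for Myl3 and 26.5% for Myl9.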

How the data were processed

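Transcripts of 18 mouse hearts were profiled from polyA RNA, extracted with Trizol and made into libraries with a TruSeq kit that does not mark strand, per the labels' protocols. The authors deposited gene-level FPKM for each library. Bowtie2, Cufflinks and mm10 are named in the submitters' processing notes, without versions or annotation. Pairwise tables of the authors hold group FPKM, p-values and q-values, per the file headers. Tests used log2(FPKM + 1), a scale that understates changes of low genes, for genes reaching 1 FPKM in 3 or more libraries. Failed estimates removed 2 genes. With limma 3.58.1 (R 4.3.3), 1 model with a mean for each of the 6 groups took in all 18 libraries (trended, robust prior; 12 residual degrees of freedom). Within a comparison the Benjamini-Hochberg adjustment ran over all genes, and calls are at 0.05. Replicates are numbered in accession order, and no replicate pair was identical (Pearson r at least 0.975). Absolute depth is unknown, so no counting interval is given. The members, gene lists and comparisons were chosen with earlier results of these data known. Named genes are the members, Myh6, Myh7, the 3 genes most correlated with each member, and called genes of each pathway list. Acta2, Mylk, Tnni2, Tnnt3, Myh4, Cspg4, Kcnj8, Rgs5, Myl4, Myl7, Nppa, Mybphl and Med13 were named outside that rule. Alternatives were another pseudocount (0.1), no filter, quantile normalization, equal library totals, a plain prior, only the groups compared, leaving out single hearts or those highest in marker sums, and the authors' q-values. From the list of kinases and calmodulin genes, 1 gene is not reported here.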

Additional observations from a re-analysis of the deposited data

How the results depend on the processing

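Counts of the 5 genes called moved by more than 1.5 times under these settings. With equal library totals, the count became 1 for PTU against NC in WT, 2 for PTU against NC in cKO and 4 for PTU+T3 against PTU in cKO, and, averaged over genotypes, 3 for PTU against NC and 2 for PTU+T3 against NC. Under quantile normalization it became 2 for PTU+T3 against NC in each genotype and 3 averaged, and the averaged Myl3 change for PTU+T3 against PTU turned to -0.043. With only the groups compared, it became 1 for PTU against NC in WT and 0 in cKO, and 0 for PTU+T3 against NC in WT. By the authors' deposited q-values it became 1 for PTU against NC in WT (Myl9), 0 for PTU+T3 against NC in WT and 1 for cKO against WT on PTU+T3 (Myl9). Without the hearts highest in smooth muscle markers it became 0 for PTU against NC in cKO and for PTU+T3 against NC in WT and in cKO, and 2 for PTU against NC averaged, and without those highest in atrial markers 0 for PTU+T3 against NC in cKO. The cause was not tested. Leaving out 1 heart at a time gave 0 to 1 for PTU against NC in WT, 0 to 2 in cKO, 2 to 4 for PTU+T3 against PTU in WT, 2 to 2 in cKO, 0 to 1 for PTU+T3 against NC in each genotype, and 1 to 2, 3 to 4 and 1 to 1 averaged. Counts for cKO against WT and both interactions stayed at 0 when a heart was left out. No paired analysis was possible because the labels give no replicate numbers that groups share.

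Over all genes, limma called 2111 for PTU against NC in WT and 920 without the hearts highest in atrial markers (1346 to 2247 with 1 heart left out). In cKO it called 2017, and 992 with only the groups compared, 1289 without the atrial-high and 715 without the smooth-muscle-high hearts (955 to 2130). For PTU+T3 against NC it called 1848 in WT, 857, 723 and 866 under the same settings (949 to 1936), and 2629 in cKO, 960 and 1720 without the marked hearts (1628 to 2720). Genotype comparisons and interactions, at 0, gave 1 to 4 genes without the filter, and at most 2 with 1 heart left out. Equal library totals moved the median log2 change of all genes by up to -0.23, for PTU+T3 against PTU in cKO, where calls split 1634 higher and 4637 lower, against 3137 and 2740 without that scaling. The split was 1338 and 635 against 810 and 1207 for PTU against NC in cKO, 812 and 1418 against 1477 and 1152 for PTU+T3 against NC in cKO, and 528 and 1014 against 967 and 881 for PTU+T3 against NC in WT. Averaged over genotypes it was 2189 and 1435 against 1855 and 2088 for PTU against NC, 2395 and 4962 against 3809 and 3694 for PTU+T3 against PTU, and 1342 and 2698 against 2345 and 2033 for PTU+T3 against NC.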
